A study of Mus musculus with 2 samples.

Results

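Transcripts of 10 carbonic anhydrase and aquaporin genes were followed in mouse liver, among 21878 gene symbols listed in each library. The members were chosen by symbol, with earlier results of these data known. They comprise 6 carbonic anhydrases (*Car2*, *Car3*, *Car5a*, *Car8*, *Car12* and *Car14*) and 4 aquaporins (*Aqp3*, *Aqp8*, *Aqp9* and *Aqp11*). The families hold 18 further listed genes, 10 carbonic anhydrases and 8 aquaporins, which are given for comparison. PolyA RNA was sequenced from 1 liver sample treated with TSA and 1 liver sample with no treatment. Both came from FVB/N mice given c-Myc hydrodynamically, that is by fast injection of a large volume into the tail vein, which carries DNA into hepatocytes, so neither library is a liver without c-Myc. The series was set up to follow TSA in a liver cancer model driven by c-Myc. The sources used here do not give age, sex, TSA dose, time of sampling, the number of animals behind a sample, or whether tumour or whole liver was taken.

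Carbonic anhydrases catalyse the reversible hydration of carbon dioxide to bicarbonate and a proton, and aquaporins are membrane channels for water, of which the aquaglyceroporins also pass glycerol. In liver, bicarbonate made inside mitochondria feeds the first step of the urea cycle and pyruvate carboxylation, and membrane enzymes set the pH outside the cell. Hepatocytes take up glycerol for gluconeogenesis through *Aqp9* and move water into bile through other channels.

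The TSA library held 17088227 counts and the untreated library 17281523. All 8 hepatocyte markers had counts in both libraries, with summed levels of 147223 CPM (counts scaled by TMM and set to a common library size) in the TSA library and 6655 CPM in the untreated library. Scaling by TMM set every log2 ratio 0.85 above that from total counts. Since each group is 1 library, no difference could be checked against replicates and no p-value is given. Ratios are TSA over untreated, and those below 1 are turned round and written as a fold lower. Parentheses hold 95% intervals, which reflect the counting of reads alone. Genes with at least 20 summed counts were tested, and calls needed both a 2-fold difference and an interval off 1. In whole tissue, fewer cells of a type and less RNA per cell cannot be told apart.

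The members split into a higher, a lower and an intermediate set. All 10 had enough counts to be tested, and 5 were called higher (*Car2*, *Car3*, *Car5a*, *Car8* and *Aqp9*), against a background of 26.0% of the 13027 genes tested. The 2 called lower were *Car12* and *Aqp3*, where 27.4% of all genes tested were lower. *Car14*, *Aqp8* and *Aqp11* were neither, as were 46.6% of all genes tested. The median log2 ratio was 1.66 over the members and -0.11 over all genes tested. With total counts the same numbers of members were called, 5 higher and 2 lower, on a background of 16.0% higher and 48.7% lower. Because the members were chosen with earlier results known, the shares over all genes, here and below, give scale only. They cannot show that the members are unusual.

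*Car3* had the highest level of any member in the TSA library. It codes for a cytosolic carbonic anhydrase of low catalytic activity that is abundant in skeletal muscle, fat and liver. It had 48184 counts (1835 FPKM, a level corrected for gene model length and library total) in the TSA library, against 359 counts (13.5 FPKM) in the untreated library. This was a ratio of 245-fold (221 to 273) higher; total counts gave 136-fold. By FPKM it ranked 29 among all listed genes in the TSA library and 4900 in the untreated library. Skeletal muscle markers, which include the muscle creatine kinase gene *Ckm*, are given for comparison. Their summed counts were 17 in the TSA library and 142 in the untreated library. Only 2 of the 6 were tested, and both were lower. These were *Ckm*, with 0 counts with TSA and 79 without, and *Mylpf*, with 14 and 53. The rest, named after their values were seen, had few counts in either library. *Acta1*, *Mb* and *Myh4* had 0 counts with TSA and 7, 1 and 0 without, and *Tnnt3* had 3 with TSA and 2 without. Adipocyte markers summed to 191 counts in the TSA library and 469 in the untreated library, with 2 higher and 1 lower of 3 tested. Most of the untreated sum came from the lower gene, *Fabp4*, with 102 counts in the TSA library and 446 in the untreated library. The higher genes were *Cidec*, with 53 counts with TSA and 23 without, and *Cfd*, named after its values were seen, with 20 and 0. *Adipoq*, for the fat cell hormone adiponectin and named after its values were seen, had 10 counts in the TSA library and 0 in the untreated library. Hepatocyte markers were higher in the same library as *Car3*, all 8 of them with TMM and 7 with total counts. For these 3 marker lists, the shares of all genes tested were 26.0% higher and 27.4% lower with TMM. With total counts they were 16.0% and 48.7%. The part of muscle, fat or hepatocytes in the *Car3* ratio was not tested.

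*Car5a*, the mitochondrial carbonic anhydrase of liver, supplies bicarbonate to carbamoyl phosphate synthetase and pyruvate carboxylase. It had 2144 counts (100.5 FPKM) in the TSA library, against 29 counts (1.34 FPKM) in the untreated library, and was 135-fold (93.7 to 202) higher; total counts gave 74.8-fold. Its near relative *Car5b*, the mitochondrial form of many other tissues, was scarce in both, with 42 counts in the TSA library and 5 in the untreated library. Per length, *Car5a* was at 141 times the level of *Car5b* in the TSA library and at 16.0 times in the untreated library. The liver form was the more abundant of the pair in either library.

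*Car2*, for the fast cytosolic enzyme found in many tissues and in red cells, had 244 counts (7.58 FPKM) with TSA, against 49 counts (1.505 FPKM) without treatment. It was 9.09-fold (6.66 to 12.6) higher. *Car8* codes for a carbonic anhydrase-related protein that lacks the catalytic activity and binds the inositol trisphosphate receptor of type 1. It had 1674 counts (17.1 FPKM) in the TSA library and 410 counts (4.15 FPKM) in the untreated library, 7.45-fold (6.68 to 8.32) higher. Both kept their call with total counts, at 5.04-fold for *Car2* and 4.13-fold for *Car8*. They stood well below *Car3* in ratio and in level.

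*Aqp9* was the higher member among the aquaporins. It codes for the aquaglyceroporin of the sinusoidal hepatocyte membrane, through which glycerol enters. It had 6804 counts (101.4 FPKM) with TSA, against 81 counts (1.19 FPKM) without treatment, and was 153-fold (123 to 193) higher; total counts gave 84.95-fold. Neutrophils also carry *Aqp9*. Their 6 markers summed to 143 counts in the TSA library and 73 in the untreated library. All 3 tested were called higher, and total counts left 2 of these calls. Among all 13027 genes tested, TMM gave a higher call to 26.0% and total counts to 16.0%. The part of neutrophils in the *Aqp9* ratio was not tested.

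*Car12* and *Aqp3* had almost no counts in the TSA library. *Car12* codes for a membrane enzyme whose active site faces the outside of the cell and which is known from hypoxic tumours. It had 4 counts (0.0405 FPKM) in the TSA library, against 1963 counts (19.7 FPKM) in the untreated library, 269-fold (105 to 988) lower. *Aqp3*, for an aquaglyceroporin of kidney collecting duct, skin and other epithelia, had 2 counts (0.0664 FPKM) with TSA and 974 counts (32.0 FPKM) without treatment. This was 267-fold (73.7 to 2206) lower. The wide intervals follow from the 4 and 2 counts in the TSA library. With TMM, ratios of at least 100-fold were found in 1.94% of genes tested in the higher direction and 0.568% in the lower. Of the members, 3 (*Car3*, *Car5a* and *Aqp9*) were that much higher and both lower members were that much lower. With total counts *Car5a* and *Aqp9* lay under 100-fold and *Car3* did not.

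Proliferation markers were lower in the same library as *Car12* and *Aqp3*, while bile duct markers were split. Of 7 tested cholangiocyte markers, genes of the bile duct lining, 2 were lower, 4 higher and 1 neither with TMM, and 3 were lower and 2 higher with total counts. For this and the next lists, the shares of all genes tested were 26.0% higher and 27.4% lower with TMM. With total counts they were 16.0% and 48.7%. The cholangiocyte markers called lower are near those shares under both scalings. *Krt7*, for a keratin of ducts, had 10 counts in the TSA library and 577 in the untreated library, while *Spp1*, for osteopontin, had 545 counts in the TSA library and 76 in the untreated library. The 8 markers summed to 989 counts (77.8 CPM) in the TSA library and 1836 counts (79.1 CPM) in the untreated library, with *Cftr*, named after its values were seen, at 0 counts with TSA and 4 without. All 6 proliferation markers were lower under both scalings, with a summed level of 18.2 CPM in the TSA library and 1263 CPM in the untreated library. Macrophages and Kupffer cells, in which *Aqp3* is also found, had 5 of 8 markers higher, 1 lower and 2 neither with TMM; total counts gave 3 higher and 2 lower. Their markers summed to 7446 counts (585 CPM) in the TSA library and 7862 counts (339 CPM) in the untreated library. The summed level was thus higher with TSA with TMM but not with total counts. Most of the untreated sum came from *Cd5l*, with 1647 counts in the TSA library and 4217 in the untreated library. The part of any of these in the *Car12* and *Aqp3* ratios was not tested.

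*Car14*, *Aqp8* and *Aqp11* differed little beside these, and their direction depended on scaling. *Car14*, for a membrane enzyme found on hepatocytes, had 522 counts (13.9 FPKM) in the TSA library and 740 counts (19.5 FPKM) in the untreated library. It was 1.29-fold (1.15 to 1.44) higher with TMM and 1.40-fold lower with total counts. *Aqp8*, for a water channel of the bile canaliculus, had 655 counts (25.8 FPKM) with TSA and 889 counts (34.6 FPKM) without treatment, 1.34-fold higher with TMM and 1.34-fold lower with total counts. *Aqp11*, for an intracellular channel whose loss in mice leads to cystic kidneys, had 789 counts (34.9 FPKM) in the TSA library and 1071 counts (46.9 FPKM) in the untreated library. Its ratios were also 1.34-fold higher with TMM and 1.34-fold lower with total counts. These 3 genes stood at percentiles 61.8, 63.1 and 63.1 of the ratios of all genes tested. *Car14* overlaps *Aph1a* on the opposite strand in GENCODE M21, and *Aph1a*, named after its values were seen, had 969 counts in the TSA library and 1520 in the untreated library. Whether strand was used in counting is not stated in these sources, and the *Car14* value is therefore uncertain.

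**Figure D1:**
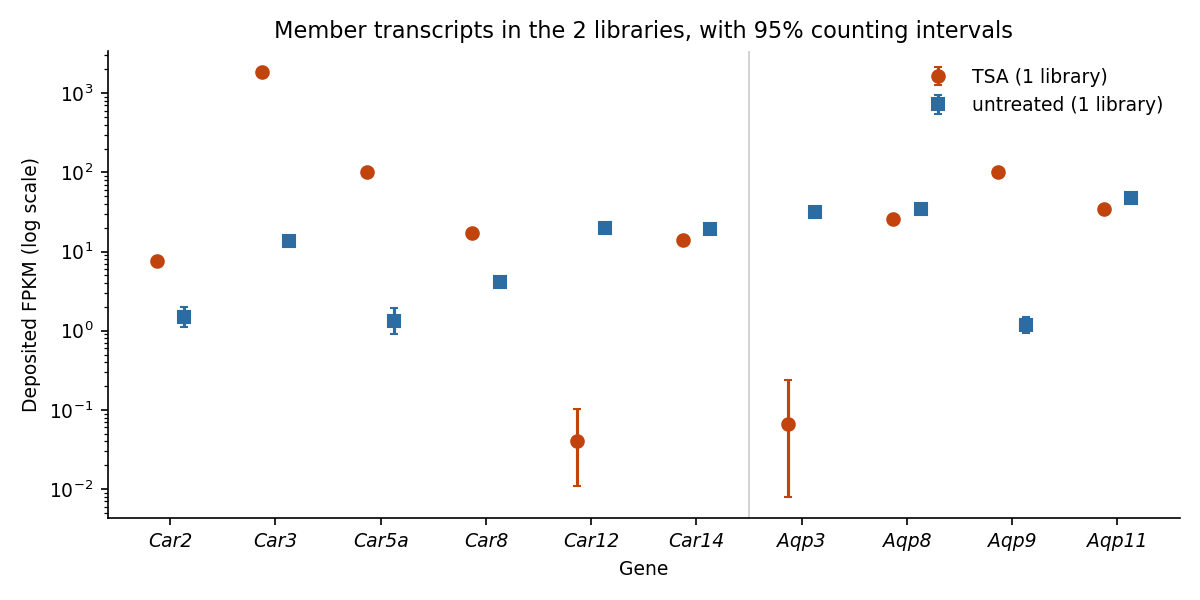
Deposited FPKM of each member on a log scale, with the TSA library as circles and the untreated library as squares, and exact Poisson 95% intervals for counting error; each group is 1 library. *Car3*, *Car5a* and *Aqp9* stand at 1835, 100.5 and 101.4 FPKM in the TSA library, while *Car12* and *Aqp3* stand under 0.1 there and at 19.7 and 32.0 FPKM in the untreated library.

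The order of the members by FPKM, which is per length, was largely rearranged. In the TSA library *Car3* stood first, followed by *Aqp9* and *Car5a*, whose counting intervals overlapped. *Aqp11*, *Aqp8*, *Car8*, *Car14* and *Car2* came next, each apart from the one after it. *Aqp3* and *Car12* came last, with overlapping intervals. In the untreated library *Aqp11* stood first at 46.9 FPKM, followed by *Aqp8* and *Aqp3*, which overlapped, and by *Car12* and *Car14*, which overlapped as well. *Car3* and *Car8* came next, and *Car2*, *Car5a* and *Aqp9* closed the order with overlapping intervals. *Aqp11* and *Aqp8* kept the same order relative to each other in both libraries.

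**Figure D2:**
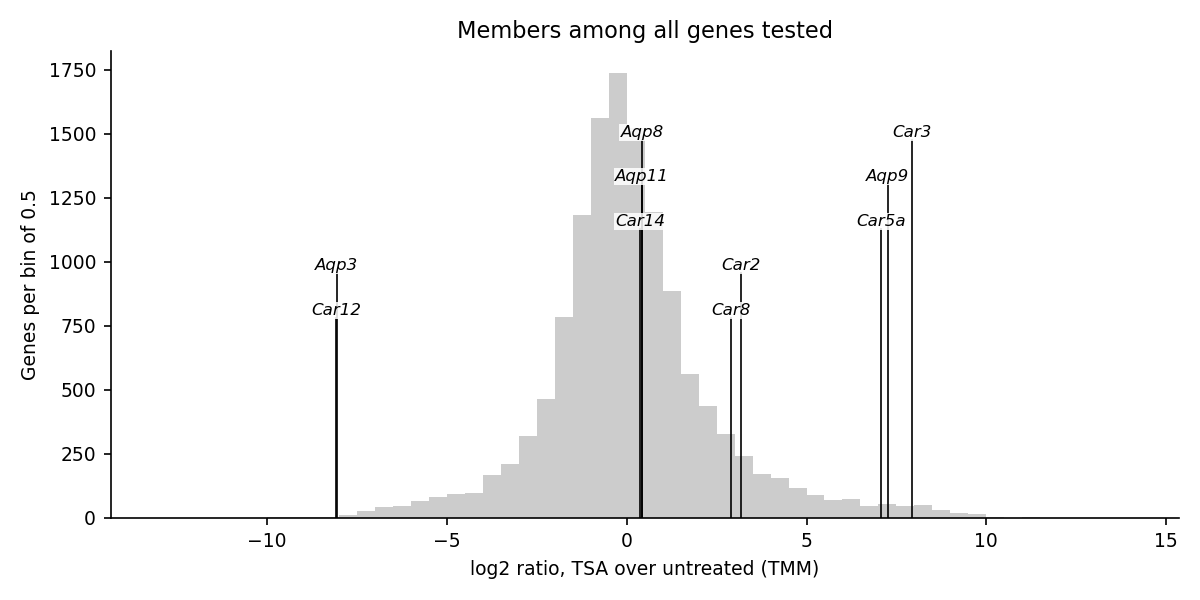
Histogram of the log2 ratios of all 13027 genes tested, TSA over untreated with TMM, in bins of 0.5, with a line for each member. *Aqp3* and *Car12* lie in the lower tail at -8.06 and -8.07, *Car14*, *Aqp8* and *Aqp11* near the centre, and *Car5a*, *Aqp9* and *Car3* in the upper tail at 7.08, 7.26 and 7.94.

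Promoter windows of 4 members are shown because these genes had the largest ratios in each direction among members with a window. Windows of 250 bases before to 50 after the transcription start came from RefSeq on GRCm38.p6 and matched 7 of the 10 members, with 8 windows. *Car2*, *Car3* and *Car8* had no match. Capitals mark CG dinucleotides, the letters at which mammalian DNA is methylated, and each window reads 5′ to 3′ on the strand of the gene. The first of 2 windows is given for *Aqp9*.
*Car5a*: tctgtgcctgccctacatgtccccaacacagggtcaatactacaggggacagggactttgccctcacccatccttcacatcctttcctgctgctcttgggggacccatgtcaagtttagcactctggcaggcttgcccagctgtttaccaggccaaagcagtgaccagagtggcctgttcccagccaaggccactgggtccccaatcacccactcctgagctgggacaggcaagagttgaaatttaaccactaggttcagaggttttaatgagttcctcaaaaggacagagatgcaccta
*Aqp9*: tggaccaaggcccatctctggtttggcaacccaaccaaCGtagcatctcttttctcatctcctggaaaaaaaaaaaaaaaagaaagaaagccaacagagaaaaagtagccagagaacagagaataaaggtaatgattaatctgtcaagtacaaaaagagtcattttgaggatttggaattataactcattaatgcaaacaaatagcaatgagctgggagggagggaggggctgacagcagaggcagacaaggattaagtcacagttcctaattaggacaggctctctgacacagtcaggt
*Car12*: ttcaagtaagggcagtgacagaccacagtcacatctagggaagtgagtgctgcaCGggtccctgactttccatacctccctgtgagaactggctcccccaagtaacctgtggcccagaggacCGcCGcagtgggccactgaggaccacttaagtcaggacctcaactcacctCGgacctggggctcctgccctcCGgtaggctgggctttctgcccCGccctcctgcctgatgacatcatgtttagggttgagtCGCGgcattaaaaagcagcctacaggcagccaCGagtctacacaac
*Aqp3*: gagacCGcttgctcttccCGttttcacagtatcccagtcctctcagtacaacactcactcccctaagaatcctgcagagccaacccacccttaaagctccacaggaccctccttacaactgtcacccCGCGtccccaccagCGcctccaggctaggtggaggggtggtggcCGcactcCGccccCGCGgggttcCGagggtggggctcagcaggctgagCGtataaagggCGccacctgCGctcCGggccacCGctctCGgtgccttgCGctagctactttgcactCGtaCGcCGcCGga
The *Car5a* window lies at chr8:121944863-121945162 (minus strand), *Aqp9* at chr9:71163240-71163539 (minus), *Car12* at chr9:66713436-66713735 (plus) and *Aqp3* at chr4:41098134-41098433 (minus). The *Car5a* window held 0 CG and the *Aqp9* window 1, and the other *Aqp9* window held 4. The *Car12* window held 9 and the *Aqp3* window 21. The median of all 32851 promoter windows was 7, and 94.6% of them held at least 1 CG. Among the members of intermediate ratio the windows of *Aqp8*, *Car14* and *Aqp11* held 6, 13 and 27.

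A set of 4 short motifs were searched on both strands of the same windows. CACGTG, the E-box that MYC binds with MAX, was found in 1 of the 8 member windows, that of *Aqp8*, with its first base 75 before the start, and in 7.15% of all windows. ACGTG, the core of the hypoxia response element, overlaps CACGTG and was found there, in the *Car14* window and in the second *Aqp9* window, against 19.6% of all windows. TATAAA, the TATA box, lay 29 bases before the start of *Aqp3* and was found in 13.6% of all windows. GGGCGG, a GC box, was found once each in the *Car12* and *Aqp3* windows and in 35.7% of all windows. A match describes letters only, and these windows show nothing of binding in the livers sampled.

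The rest of both families showed differences in either direction. Of the 18 other genes 8 were tested, and with TMM 5 were higher, 2 lower and 1 neither. Over all genes tested 26.0% were higher and 27.4% lower. With total counts 4 of the 8 were higher and 3 lower. *Aqp1*, for the water channel of endothelium, red cells and bile ducts, had 2705 counts (57.4 FPKM) with TSA and 321 counts (6.73 FPKM) without treatment, 15.4-fold (13.7 to 17.3) higher. *Car1*, the red cell carbonic anhydrase gene, had 151 counts with TSA and 2 without, a ratio of 138-fold (37.5 to 1148) higher. *Car5b* was 15.3-fold (6.07 to 49.6) higher and *Aqp4*, for the water channel of astrocytes, 7.10-fold (3.34 to 16.8) higher, each on fewer than 50 counts in the TSA library. *Car15*, with 18 counts in the TSA library and 12 in the untreated library, was 2.74-fold (1.25 to 6.23) higher and was not called with total counts. *Car7*, for a cytosolic enzyme best known from neurons, had 25 counts (0.614 FPKM) with TSA and 435 counts (10.6 FPKM) without treatment, 9.53-fold (6.37 to 14.9) lower. *Aqp7*, for the glycerol channel of fat cells, had 1 count with TSA and 120 without, 65.7-fold (11.6 to 2618) lower. *Car13* was neither, at 1.27-fold (0.726 to 2.30) lower, but was called lower with total counts at 2.29-fold.

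Of these genes 10 had too few counts. *Car6*, *Car10*, *Mip*, *Aqp2*, *Aqp5*, *Aqp6* and *Aqp12* had 0 counts in both libraries, so that each could have had up to 3 counts, which is 0.236 CPM in the TSA library and 0.129 CPM in the untreated library. *Car9*, the other membrane enzyme known from hypoxic tumours, had 0 counts with TSA and 4 without. *Car4* had 1 count with TSA and 6 without, and *Car11* had 11 with TSA and 3 without. No fold is given for these genes.

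Markers of red cells and endothelium were higher in the library in which *Car1*, *Car2* and *Aqp1* were higher. All 4 tested erythroid markers were higher under both scalings, with summed levels over 7 listed markers of 351 CPM in the TSA library and 69.4 CPM in the untreated library. *Hba-a1*, for alpha globin, was 5.38-fold (4.92 to 5.89) higher and *Hbb-bs*, for beta globin, 4.71-fold (4.33 to 5.14) higher. *Hba-a2*, named after its values were seen, had 0 counts in the TSA library and 1 in the untreated library. *Epb42*, named likewise, had 2 in the TSA library and 0 in the untreated library. Of 8 endothelial markers 7 were called higher (4 under total counts), with summed levels of 622 CPM in the TSA library and 118 CPM in the untreated library, and *Stab2*, for a scavenger receptor of sinusoids, was 18.6-fold (15.9 to 21.7) higher. For scale, the share of all genes tested with a higher call was 26.0% under TMM and 16.0% under total counts. The part of red cells and endothelium in the *Car1*, *Car2* and *Aqp1* ratios was not tested.

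**Figure D3:**
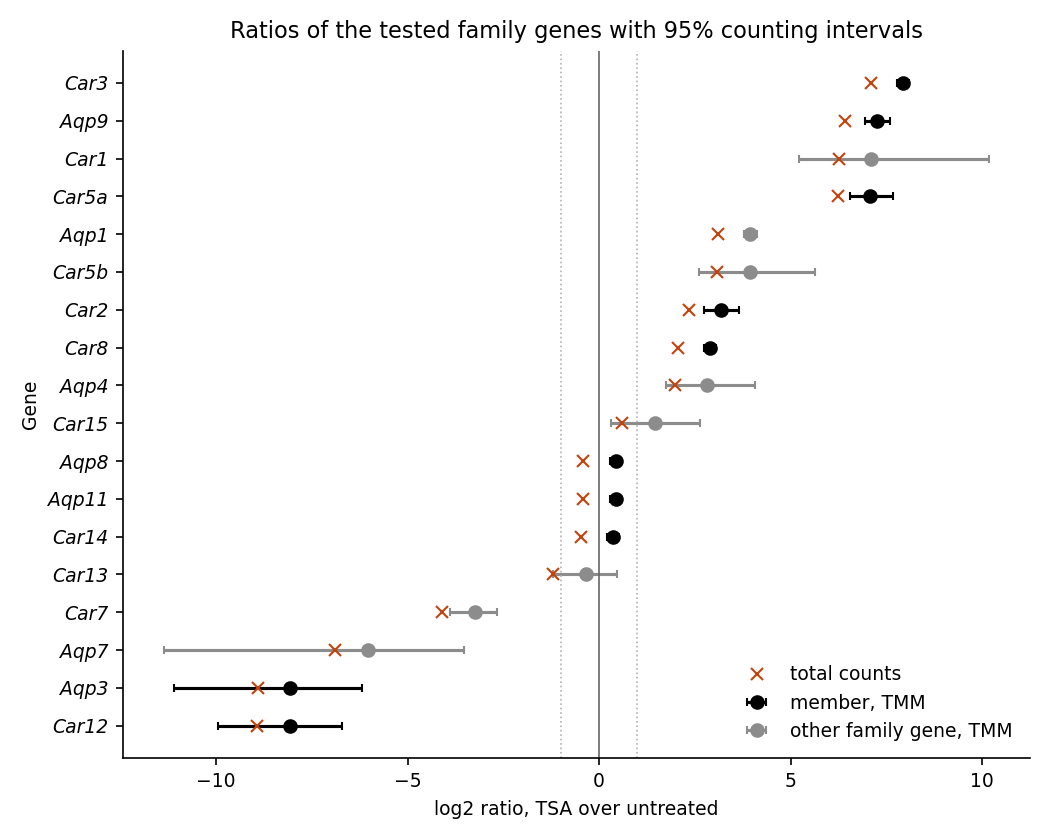
Log2 ratios, TSA over untreated, of the 18 tested genes of both families with TMM (circles, members in black, with 95% counting intervals) and with total counts (crosses); dotted lines mark a ratio of 2 in either direction. *Car14*, *Aqp8* and *Aqp11* lie on opposite sides of 0 under the 2 scalings, while the 7 called members stay on one side.

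Neighbouring genes of the families that were tested were not all called alike. In the RefSeq annotation of GRCm38.p6, *Car13*, *Car1*, *Car3* and *Car2* lie next to each other on chromosome 3 with 0 protein-coding genes between them. Of the 4, 3 of them, *Car1*, *Car3* and *Car2*, were higher, at 138-fold, 245-fold and 9.09-fold. *Car13* was not called with TMM, where its interval held 1, and was called lower with total counts. *Aqp7* and *Aqp3* are neighbours on chromosome 4 with 0 protein-coding genes between them, and both were lower.

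The makeup of each family, which needs no scaling between libraries, differed between the TSA and the untreated library. *Car3* took 92.5% of summed carbonic anhydrase FPKM in the TSA library and 18.7% in the untreated library. *Car5a* took 5.07% with TSA and 1.86% without treatment, and *Car8* took 0.864% with TSA and 5.73% without. *Car12* and *Car14* were the leading pair in the untreated library. *Car12* took 0.00204% in the TSA library and 27.2% in the untreated library, and *Car14* took 0.701% with TSA and 26.9% without. *Car7*, which is not among the members, took 0.0310% with TSA and 14.6% without. Summed over the 16 carbonic anhydrases the level was 1983 FPKM in the TSA library and 72.3 FPKM in the untreated library. The summed counts were 0.310% of the TSA library and 0.0235% of the untreated library.

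Among aquaporins *Aqp9* took 46.1% of summed FPKM in the TSA library and 0.965% in the untreated library. *Aqp1* took 26.1% with TSA and 5.44% without treatment. *Aqp11* took 15.9% with TSA and 37.9% without, and *Aqp8* took 11.7% with TSA and 28.0% without. *Aqp3* took 0.0302% in the TSA library and 25.9% in the untreated library. The aquaglyceroporins *Aqp9* and *Aqp3* stood in opposite order: *Aqp9* was at 1527 times the FPKM of *Aqp3* in the TSA library, and *Aqp3* was at 26.8 times the FPKM of *Aqp9* in the untreated library. The summed level of the 12 aquaporins was 219.9 FPKM in the TSA library and 123.7 FPKM in the untreated library.

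**Figure D4:**
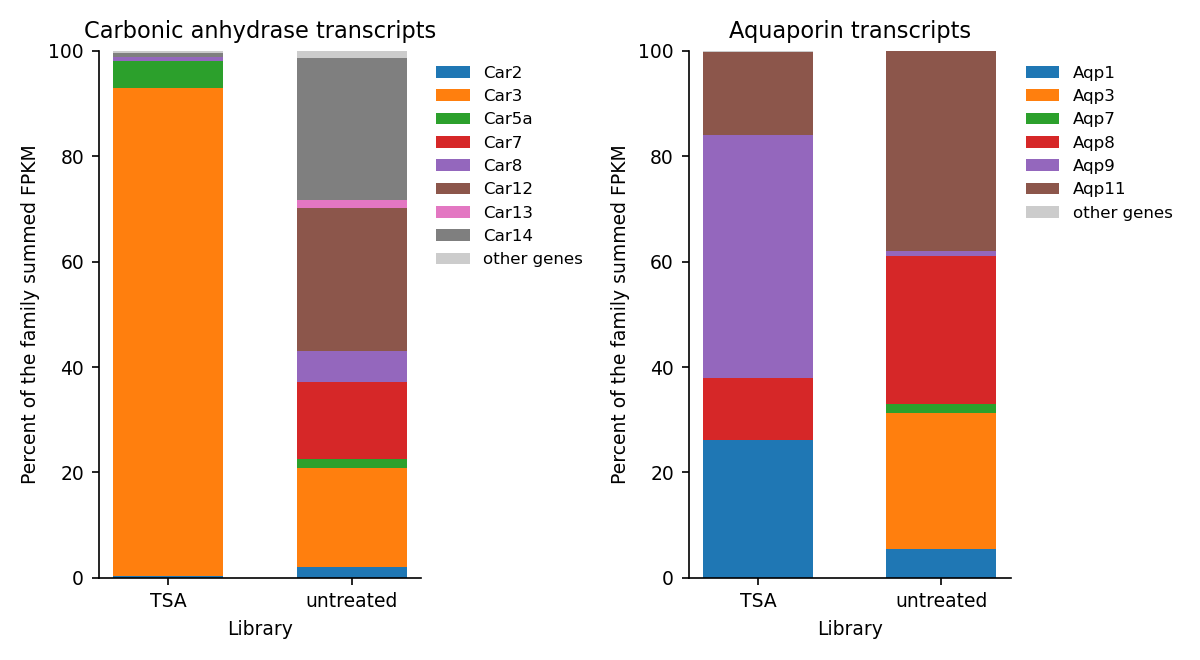
Share of the summed FPKM of the 16 carbonic anhydrases (left) and the 12 aquaporins (right) taken by each gene, in percent, in the TSA and the untreated library; genes under 1% in both libraries are drawn together as other genes. *Car3* fills 92.5% of the TSA column and 18.7% of the untreated column, and *Aqp9* fills 46.1% of the TSA column and 0.965% of the untreated column.

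Enzymes that use bicarbonate were mostly higher with TMM. Of 9 such carboxylases and synthetases 6 were higher, 1 lower and 2 neither, where 26.0% of all genes tested were higher and 27.4% lower. Their median log2 ratio was 1.57 against -0.11 over all genes tested. With total counts 4 were higher and 1 lower, where 16.0% of all genes tested were higher and 48.7% lower. *Cps1*, for the urea cycle enzyme that takes up mitochondrial bicarbonate, had 93445 counts with TSA and 8085 without, 21.1-fold (20.6 to 21.6) higher. *Pcx*, for pyruvate carboxylase, was 2.63-fold (2.55 to 2.71) higher with TMM and 1.46-fold with total counts, which was not called. *Cad*, for the enzyme that starts pyrimidine synthesis in the cytosol from bicarbonate, had 637 counts with TSA and 9482 without, 8.16-fold (7.53 to 8.85) lower.

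Bicarbonate transporters were split, 3 higher, 3 lower and 3 neither of 9 tested, with a median of -0.75; with total counts 3 were higher and 6 lower. With TMM this is near the 26.0% higher and 27.4% lower of all genes tested, and the list is given as values only. *Slc4a4*, for a sodium bicarbonate cotransporter, was 7.01-fold (6.21 to 7.93) higher. *Slc4a2*, for the anion exchanger with most counts, had 727 counts with TSA and 2225 without, 1.68-fold (1.54 to 1.83) lower with TMM and 3.03-fold lower with total counts. *Slc4a3* was 7.73-fold (3.95 to 17.3) lower and *Slc4a9* 10.5-fold (5.90 to 20.6) lower. Among 6 tested genes of proton and lactate extrusion 1 was higher, 2 lower and 3 neither, with a median of -0.28. With total counts 1 was higher and 3 lower. The latter is near the 16.0% higher and 48.7% lower of all genes tested with total counts, and this list too is given as values only. The lactate carrier genes *Slc16a3* and *Slc16a1* were 44.6-fold (25.4 to 86.5) and 3.25-fold (3.03 to 3.49) lower, and *Slc16a7* was 10.2-fold (9.22 to 11.4) higher. *Bsg*, for the chaperone of the *Slc16a1* and *Slc16a3* carriers, stood at 1.14-fold (1.10 to 1.18) higher with TMM and at 1.58-fold lower with total counts.

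Of 8 tested genes that release or use glycerol, the solute of *Aqp9* and *Aqp3*, 4 were called higher and 4 neither with TMM (median 1.37). Over all genes tested 26.0% were higher. Total counts gave 3 higher and 1 lower of the 8, where 16.0% of all genes tested were higher and 48.7% lower. *Lipe*, for hormone-sensitive lipase, was 11.2-fold (8.31 to 15.4) higher, and *Mgll*, for monoacylglycerol lipase, 6.42-fold (6.09 to 6.76) higher. *Gpd1*, for cytosolic glycerol-3-phosphate dehydrogenase, had 5853 counts with TSA and 10684 without, a ratio near 1 (0.969 to 1.03) with TMM and 1.80-fold lower with total counts. *Gk*, for glycerol kinase and named after its values were seen, was 3.91-fold (3.61 to 4.24) higher, less than the 153-fold of *Aqp9*.

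The inositol trisphosphate receptors, which release calcium from the endoplasmic reticulum, were split: *Itpr1*, the partner of CAR8, was 3.08-fold (2.86 to 3.31) higher, *Itpr2* 4.25-fold (3.89 to 4.65) higher and *Itpr3* 5.57-fold (4.59 to 6.81) lower. With total counts *Itpr1*, at 1.71-fold, was not called. Of 10 hypoxia targets, a group to which *Car9* and *Car12* also belong, 3 were higher, 3 lower and 4 neither with a median of 0.06. With total counts 2 were higher and 5 lower. Both are near the shares of all genes tested, 26.0% higher and 27.4% lower with TMM and 16.0% and 48.7% with total counts. The list is given as values only. *Vegfa*, for the vascular growth factor, was 8.71-fold (8.08 to 9.40) higher and *Ndrg1* 8.23-fold (7.04 to 9.68) lower. *Bnip3*, the list member with most counts, was at 1.76-fold (1.68 to 1.84) with TMM. *Car12*, at 269-fold lower, differed more than any of these targets named here.

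**Figure D5:**
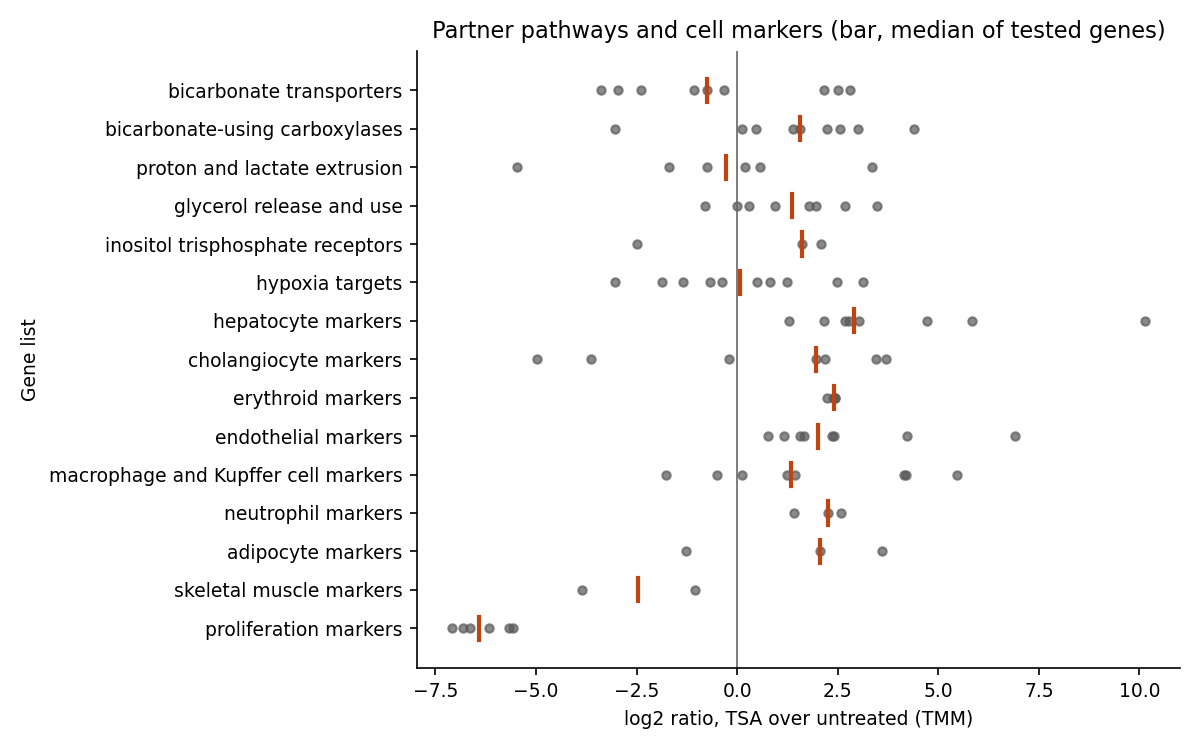
Log2 ratios, TSA over untreated with TMM, of the tested genes of each partner pathway and cell marker list (points) with the median of each list (bar). Bicarbonate-using carboxylases have a median of 1.57 and bicarbonate transporters of -0.75, hepatocyte markers of 2.91, and proliferation markers of -6.40.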

How the data were processed

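PolyA RNA of liver was sequenced in 2 libraries, 1 per group, as the labels give them. The deposited counts are unscaled whole numbers for each gene symbol. The deposited FPKM are those counts per gene model length and library total: dividing out the counts gave a length that was whole within 0.1 base and equal in both libraries for all 14271 genes with counts in both. The submitters' processing notes list Trimmomatic, HISAT2, Bowtie2 and DESeq without saying what each did. The build, counter and strand use were not given in the sources used here.

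TMM factors from edgeR 4.0.16 (R 4.3.3) were 0.744 for TSA and 1.34 for untreated. Alternatives were DESeq2 1.42.0 size factors, upper quartiles, total counts, deposited FPKM with 0.1 or 1 added, a prior count of 2, other count minimums and folds, and thinning of the untreated library to equal totals. Ratio intervals are exact conditional binomial (Clopper-Pearson) and those of FPKM exact Poisson. Both cover counting error only, because each group is 1 library. PCR copies of a molecule cannot be told from separate molecules here, so the intervals may be too narrow even for that. Without a replicate no p-value can be had. A count of 0 allows up to 3 counts. The calling was tested on simulated counts that had counting error alone and few changed genes. That test does not cover differences between animals or the choice of scaling.

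Members and the 17 lists of genes were chosen with earlier results of these data known. Named genes are drawn from the members, all other genes of both families and, in each other list, among those with at least 50 counts, the top 2 by counts and the top 2 by size of ratio; genes outside that rule are marked, and some genes inside it are not named. Likeness of pattern cannot be ranked over 2 libraries, so percentiles of ratios are given. *Pcx* was matched through its older symbol in RefSeq, and 1 erythroid marker had no match. Other software was matplotlib 3.10.9, scipy 1.17.1, pandas 2.3.3, numpy 2.4.6 and Python 3.11.15.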

Additional observations from a re-analysis of the deposited data

How the results depend on the processing

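The 5 members called higher and the 2 called lower kept those counts under every scaling, minimum, fold and pseudocount tried, and the median log2 ratio of the members relative to all genes ranged from 1.35 with 1 FPKM added to 1.78 with the untreated library thinned. The direction of 3 uncalled members depended on scaling. With total counts the log2 ratios were -0.49 for *Car14* and -0.42 for both *Aqp8* and *Aqp11*, with 0.1 FPKM added -0.48, -0.42 and -0.42 in the same order, and with 1 FPKM added -0.46, -0.41 and -0.41. Relative to the median of all genes tested, -0.96 with total counts, they stay above it. Outside the members, 5 calls of *Car5b*, *Car15* and *Aqp4* were lost and 2 of *Car13* were gained under total counts or added FPKM. Shares by raw counts give long transcripts more weight: *Car12* then took 48.3% of untreated carbonic anhydrase counts. With raw counts, or with the members alone as the total, 31 shares moved by more than counting error and 9 did not. No paired analysis was possible because each group has 1 library. The counts of 4 for *Car12* and 2 for *Aqp3* with TSA limit how large those ratios can be stated. No library could be left out.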
